A study of Mus musculus with 2 samples.

Results

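Contactins and contactin-associated proteins are adhesion molecules of the axon surface, and 10 of their genes (*Cntn1*, *Cntn2*, *Cntn3*, *Cntn4*, *Cntn5*, *Cntn6*, *Cntnap2*, *Cntnap4*, *Cntnap5a* and *Cntnap5b*) are described here in single nuclei of the mouse olfactory bulb (OB). The genes were taken by their symbols from the 31053 Ensembl genes in both deposited tables, and all 10 had UMIs (unique molecular identifiers, 1 per captured RNA molecule) in both libraries. They were chosen by values measured in these same libraries, namely the contrast between the AON and the pPCx library, the contrast between projection neurons and GABAergic nuclei, and the nucleus-to-nucleus spread of *Cntn6*, so those contrasts are given below as descriptions and carry no test. Adult wild-type mice received retroAAV-CAG-H2B-GFP, a virus that enters axon endings and makes a green fluorescent histone, and bulb nuclei positive for GFP and the DNA dye DRAQ5 were sorted and sequenced with 10x Chromium 3′ chemistry. In the AON group the virus went into the anterior olfactory nucleus, and in the pPCx group it went into several sites of the posterior piriform cortex. Both groups share the virus, the strain as labelled and the sort. They differ in the injected site, the animal and the sex-linked RNA *Xist* (counts below). The CAG promoter is active in most cell types, so the label is not limited to projection neurons. Each group is 1 library, and the pPCx library came from 1 female mouse by the methods of the study. The sources used here do not give the sex or exact age of the AON animal or animals. Injection site, animal and any difference of sex therefore cannot be told apart.

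Contactins hang on the outer face of the neuronal membrane by a lipid anchor, and contactin-associated proteins cross the membrane and belong with the neurexins. Pairs of them hold axon and myelin together beside the node of Ranvier and gather potassium channels there, and other members act in axon guidance and at synapses. In the bulb the cells that send axons out are the mitral cells and tufted cells, which are glutamatergic, whereas granule and periglomerular interneurons are mostly GABAergic.

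Of 188 AON barcodes 102 held at least 1000 genes, and of 74 pPCx barcodes 63 did, for 165 nuclei in all. No barcode was shared between the libraries, and the largest mitochondrial share in a kept nucleus was 0.93% in AON and 0.51% in pPCx. The median kept nucleus held 22267 UMIs in AON and 31581 in pPCx. A nucleus was called a projection neuron where its UMIs of *Slc17a7*, *Slc17a6*, *Tbx21* and *Cdhr1* outnumbered those of *Gad1*, *Gad2* and *Slc32a1*, and GABAergic where the reverse held with 3 or more inhibitory UMIs. This gave 25 projection neurons, 47 GABAergic nuclei and 30 remaining nuclei in AON, and 59, 2 and 2 in pPCx. Levels below are UMIs summed over the nuclei of a class per 1000000 UMIs of that class (CPM), with exact 95% Poisson intervals. All intervals cover counting error only, not the spread between animals.

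The class names were checked against marker lists. All 6 projection neuron markers were detected in both projection neuron classes, at 593 CPM in AON and 618 CPM in pPCx, while the 7 interneuron markers together reached 81.4 and 92.8 CPM there and 4682 CPM in AON GABAergic nuclei. Microglia markers had 80.5 and 101 CPM with *Tmem119*, *Csf1r* and *C1qa* at 0 in both, endothelial markers 10.7 and 19.8 CPM, and oligodendrocyte precursor markers 1.79 and 0.429 CPM. Of the cortical glutamatergic markers *Tbr1*, *Neurod6* and *Cux2*, *Cux2* had 536 CPM in AON and 107 CPM in pPCx projection neurons, *Tbr1*, which mitral cells also express, 14.3 and 3.87 CPM, and *Neurod6* 1 UMI in each. The study names *Cux2* among the transcription factors of a middle and an external tufted cell type of the bulb. Its level therefore does not set cortical cells apart from tufted cells. The AON class is the less certain one. *Tbx21* was counted in 10 of its 25 nuclei, with 61.1% of 72 UMIs in 1 nucleus, against 43 of 59 pPCx nuclei. Of its 25 nuclei, 7 passed the rule by 1 UMI, 7 held under 10000 UMIs, and the deepest nucleus alone, with 274993 UMIs, carried 24.6% of the UMIs of the class. The reporter could not check the sort, since only 3 eGFP UMIs were counted in AON barcodes and 1 in pPCx barcodes. *Xist*, transcribed from the inactive X chromosome of females, had 2 UMIs in kept AON nuclei and 1782 in kept pPCx nuclei, so the libraries also stand apart in a sex-linked RNA.

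The genes lie on several chromosomes, with 4 of them on chromosome 6 (coordinates from GENCODE M21 on GRCm38, which matched 30934 of the 31053 identifiers). *Cntn6* spans chr6:104492790-104863406 on the plus strand, between *Cntn3* (chr6:102162655-102573101, minus strand) and *Cntn4* (chr6:105677660-106699310, plus strand). The interval from *Cntn3* to *Cntn6* holds 1 other protein-coding gene over 1920 kb, and that from *Cntn6* to *Cntn4* holds 0 over 814 kb. *Cntnap2* lies apart on the same chromosome (chr6:45059357-47304213, plus strand). Introns make up nearly all of most of these loci, as exons cover 1.75% of *Cntn6* and 0.457% of *Cntnap2*. Counting of intronic reads is not given in the sources used here, so levels of different genes are not compared with each other.

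The neighbours *Cntn3* and *Cntn4*, together with *Cntnap2*, turned out to vary across pPCx projection neurons in different directions relative to *Cntn6* (values below), and the 250 bases before their first RefSeq start are printed for that reason (RefSeq, GRCm38.p6, written 5′ to 3′ on the gene's strand, CG dinucleotides in capitals). *Cntn3* at chr6:102464668-102464917 has 0 CG dinucleotides, *Cntn4* at chr6:106118515-106118764 has 2, and *Cntnap2* at chr6:45059811-45060060 has 13.
*Cntn3*: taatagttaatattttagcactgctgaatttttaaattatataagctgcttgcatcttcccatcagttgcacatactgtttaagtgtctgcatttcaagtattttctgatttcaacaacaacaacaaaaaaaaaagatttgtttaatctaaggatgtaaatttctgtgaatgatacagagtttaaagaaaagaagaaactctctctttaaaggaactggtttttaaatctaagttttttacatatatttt
*Cntn4*: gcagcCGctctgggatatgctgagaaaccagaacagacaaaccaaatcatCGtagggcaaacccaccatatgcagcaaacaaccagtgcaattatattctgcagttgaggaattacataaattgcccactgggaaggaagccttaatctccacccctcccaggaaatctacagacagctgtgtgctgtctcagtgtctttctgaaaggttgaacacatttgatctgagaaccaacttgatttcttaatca
*Cntnap2*: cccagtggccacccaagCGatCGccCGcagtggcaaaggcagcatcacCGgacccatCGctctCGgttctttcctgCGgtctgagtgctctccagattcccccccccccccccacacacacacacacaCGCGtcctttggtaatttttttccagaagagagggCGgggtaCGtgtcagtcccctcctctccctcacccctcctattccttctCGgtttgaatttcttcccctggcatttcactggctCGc
These windows overlap no GENCODE exon but lie inside the longer GENCODE loci given above, so they are windows before a RefSeq start and not sequence outside the genes, whereas the one before the RefSeq start of *Cntn6* lies wholly inside an exon of a longer GENCODE transcript and is not printed. It has 3 CG dinucleotides, and the median over all 32851 windows is 6. The table had 13 windows of 8 members and none of *Cntnap4* or *Cntnap5a*. In the full windows, with the 50 bases after the start, neither the EBF core CCCNNGGG nor the T-box motif AGGTGTGA, read on both strands, was found in any of the 13, against 13.7% and 1.28% of all windows. Both motifs were searched because *Ebf1* varied with *Cntn6* and *Tbx21* is a factor of the class rule. The letters say nothing on binding elsewhere.

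*Cntn6*, a contactin known from Notch signalling and from synapse formation in the cerebellum and hippocampus, separated the libraries most widely among the 10 genes. AON projection neurons held 12 UMIs, or 10.7 CPM (5.55 to 18.8), and pPCx projection neurons held 3948 UMIs, or 1696 CPM (1640 to 1750). The ratio was 158-fold higher in pPCx, with a counting interval of 90.3 to 306. In AON, 18 of the 25 projection neurons had 0 UMIs and none had over 4. The remaining AON nuclei held 6.25 CPM (1.29 to 18.3), so the AON projection neuron level lay within the interval of that class. At a common depth of 3000 UMIs per nucleus, 0 of 25 AON projection neurons kept a *Cntn6* UMI, which allows a share of up to 12%, and 35 of 59 pPCx projection neurons did (59.3%, exact 95% interval 45.7% to 71.9%). Without thinning the shares were 28% and 81.4%, at median depths of 38129 and 34306 UMIs, and 10% in the remaining AON nuclei at 14336.

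*Cntnap5a* and *Cntnap5b*, rodent members of the contactin-associated group on chromosome 1, were also higher in pPCx projection neurons. *Cntnap5a* had 275 CPM in AON and 1124 CPM in pPCx, a 4.09-fold difference (3.64 to 4.62). *Cntnap5b* had 79.6 CPM in AON and 238 CPM in pPCx, a 2.99-fold difference (2.39 to 3.79). Thinned to 3000 UMIs, 12 of 25 AON and 43 of 59 pPCx projection neurons kept a *Cntnap5a* UMI (48%, 27.8% to 68.7%, and 72.9%, 59.7% to 83.6%), and these intervals overlap. The transcripts of *Cntnap5b* share 7.66% of their 31-base stretches with other family genes, those of *Cntnap5a* 2.81%, and the other 8 members at most 0.156%, so the division of reads within the *Cntnap5* group is less certain. *Cntnap5c*, the third gene of that group, leaned the other way at 1.62-fold higher in AON (1.31 to 2.005).

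*Cntnap4*, a presynaptic protein of interneurons, was low in both projection neuron classes and 2.25-fold higher in pPCx (34.9 against 78.6 CPM). Of its 39 AON UMIs, 61.5% came from the deepest nucleus, and the log2 ratio of AON over pPCx went from -1.16 to -0.70, under 2-fold, when barcodes with fewer than 1000 genes were admitted. The ratio was past 2-fold under 11 of 12 other settings. *Cntn5*, a contactin of sensory pathways, had 1611 CPM in AON and 3204 CPM in pPCx, a 1.99-fold difference (1.89 to 2.10) that was at or past 2-fold under 6 of 12 other settings. The typical nucleus differed more than the sums, with a median of 355 CPM over AON and 2984 CPM over pPCx projection neurons.

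The other 5 members differed by under 2-fold. *Cntn4*, which guides axons of olfactory sensory neurons to the bulb, had 1621 CPM in AON and 2274 CPM in pPCx. *Cntn1*, the partner of *Cntnap1* beside the node, had 435 and 490 CPM. The deepest nucleus held 43.0% of its AON UMIs, and the log2 ratio of AON over pPCx went from -0.17 to -0.53 without nuclei over 3 times the median depth. *Cntn2*, which meets *Cntnap2* next to the paranode, had 17 and 60 UMIs, or 15.2 and 25.8 CPM, with a counting interval of the fold from 0.975 to 3.10. Of these, *Cntn4* was 1.40-fold (1.33 to 1.48) and *Cntn1* 1.13-fold higher in pPCx, and the interval of *Cntn2* spanned 1. *Cntnap2*, which holds potassium channels in place along the axon, had 6729 CPM in AON and 5531 CPM in pPCx. *Cntn3* was the member leaning most to AON, at 241 against 146 CPM or 1.65-fold (1.40 to 1.95), and the ratio rose to 1.17 on the log2 scale when the 2 deepest nuclei, 1 per library, were left out.

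Counted together, 4 of the 10 members were at least 2-fold higher in pPCx and 0 in AON, where 12.4% and 8.51% of the 13677 genes with at least 10 UMIs were. The members' median log2 ratio of AON over pPCx was -0.86, and that of all these genes -0.06. These counts describe genes picked for this contrast and support nothing beyond it. *Tbr1*, *Neurod6* and *Cux2* together moved with the same contrast, at 551 CPM in AON (0 to 170 UMIs per nucleus, median 18) and 111 CPM in pPCx (0 to 28, median 3). *Cux2*, which tufted cells also express, gave 599 of these 616 UMIs in AON and 249 of 259 in pPCx. Astrocyte markers were level only as sums, at 210 and 205 CPM. Per nucleus they had a median of 2 and a maximum of 64 UMIs in AON, and 6 and 29 in pPCx. Oligodendrocyte markers were at 109 and 57.6 CPM, with a maximum of 44 UMIs per nucleus in AON and 10 in pPCx. The part of these marker RNAs in the contrast was not tested. Without nuclei that held 5 or more astrocyte and oligodendrocyte UMIs, 13 AON and 21 pPCx projection neurons stayed, the log2 ratio of *Cntn5* went to -3.70 and that of *Cntn6* to -5.36, and that of *Cntn4* turned from -0.49 to 0.33. This limit counts raw UMIs and is not scaled to depth, so deep nuclei reach it more easily, and these shifts cannot be assigned to glial RNA.

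**Figure D1:**
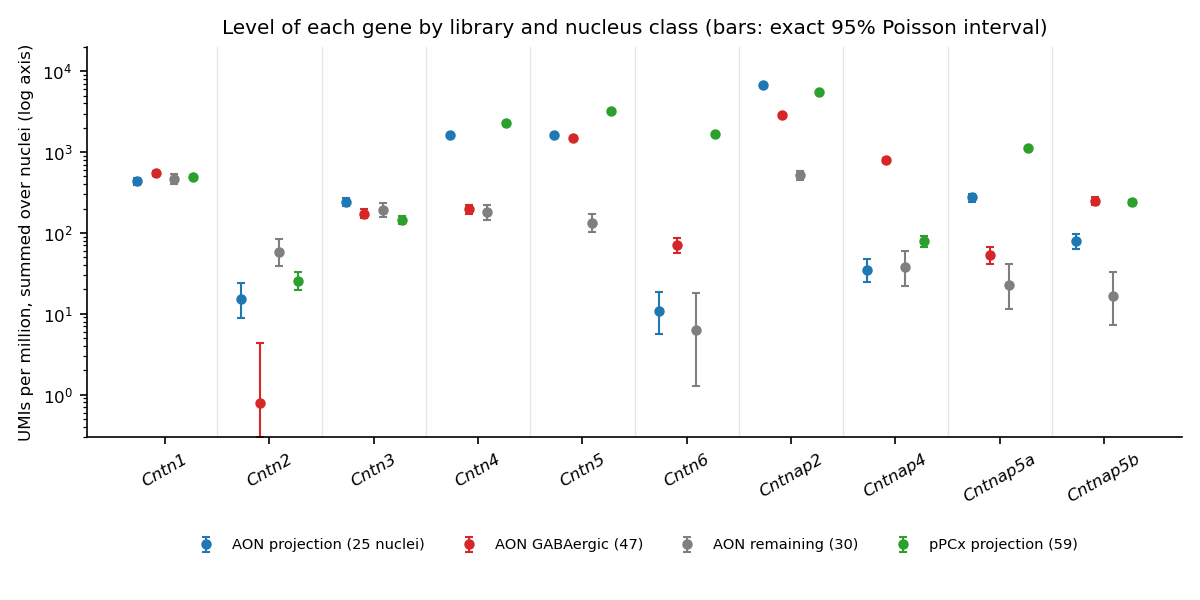
CPM (vertical log axis) of each member, summed over the nuclei of 4 classes, with exact 95% Poisson intervals as bars. *Cntn6* and *Cntnap5a* were highest in pPCx projection neurons, *Cntnap4* in AON GABAergic nuclei, and the summed level of *Cntn1* was alike in all 4 classes. The lower bar of *Cntn2* in GABAergic nuclei (1 UMI) runs off the axis.

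Projection neurons and interneurons of the AON library shared the source tissue, the sort and the chemistry, and the members divided between them. *Cntn4* had 1621 CPM in projection neurons and 196 CPM in GABAergic nuclei, 8.27-fold higher in the former (7.24 to 9.48). *Cntnap5a* was 5.14-fold higher there (275 against 53.5 CPM) and *Cntnap2* 2.34-fold higher (6729 against 2878 CPM). *Cntn2* went the same way on few counts, with 17 UMIs in projection neurons and 1 in GABAergic nuclei, a ratio with a counting interval from 3.03 to 808.

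*Cntnap4* showed the opposite pattern. It had 39 UMIs, or 34.9 CPM, in projection neurons and 1007 UMIs, or 792 CPM (744 to 843), in GABAergic nuclei, 22.7-fold more (16.5 to 32.1). At 3000 UMIs per nucleus, 28 of 47 GABAergic nuclei and 2 of 25 projection neurons kept a UMI, so the gene was spread over most interneurons rather than held by a few. *Cntnap5b* was also higher in GABAergic nuclei, 246 against 79.6 CPM, and 55.1% of its projection neuron UMIs came from the deepest nucleus. *Cntnap3*, a family member outside the 10, had 215 UMIs in GABAergic nuclei and 5 in projection neurons.

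*Cntn6* was 6.59-fold higher in AON GABAergic nuclei (70.8 CPM, 56.9 to 87) than in AON projection neurons (3.59 to 13.2). It was carried by a minority of interneurons. Of 47 nuclei 33 had 0 UMIs, and 4 nuclei with 25, 24, 16 and 9 UMIs held 82.2% of the 90 UMIs, at 348 to 878 CPM each. The share of nuclei with a UMI at 3000 UMIs was 19.1% (9.15% to 33.3%), against 3.45% (0.0873% to 17.8%) in the remaining AON nuclei. The GABAergic side of this gene was thus patchy, as was that of *Cntn5*, whose median over GABAergic nuclei was 110 CPM while its highest nucleus reached 27782 CPM.

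*Cntn5*, *Cntn1* and *Cntn3* were within 2-fold between the AON classes. *Cntn5* had 1611 CPM in projection neurons and 1486 CPM in GABAergic nuclei, a log2 ratio of 0.12 that went to -2.58 without nuclei carrying glial UMIs. These sums rest on few nuclei. Single projection neurons held 586 and 583 of the 1800 UMIs, and 1 GABAergic nucleus held 553 of the 1889. The sign of the ratio held in 8 of 12 other settings, and the part of glial RNA in the shift was not tested. *Cntn1* had 435 and 546 CPM, and *Cntn3* had 241 and 173 CPM. In all, 4 members were at least 2-fold higher in projection neurons and 3 in GABAergic nuclei, against 16.5% and 16.8% of 12272 genes. The members' median log2 ratio was 0.30 and that of all genes -0.05, a small shift that hides members far out on both sides.

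**Figure D2:**
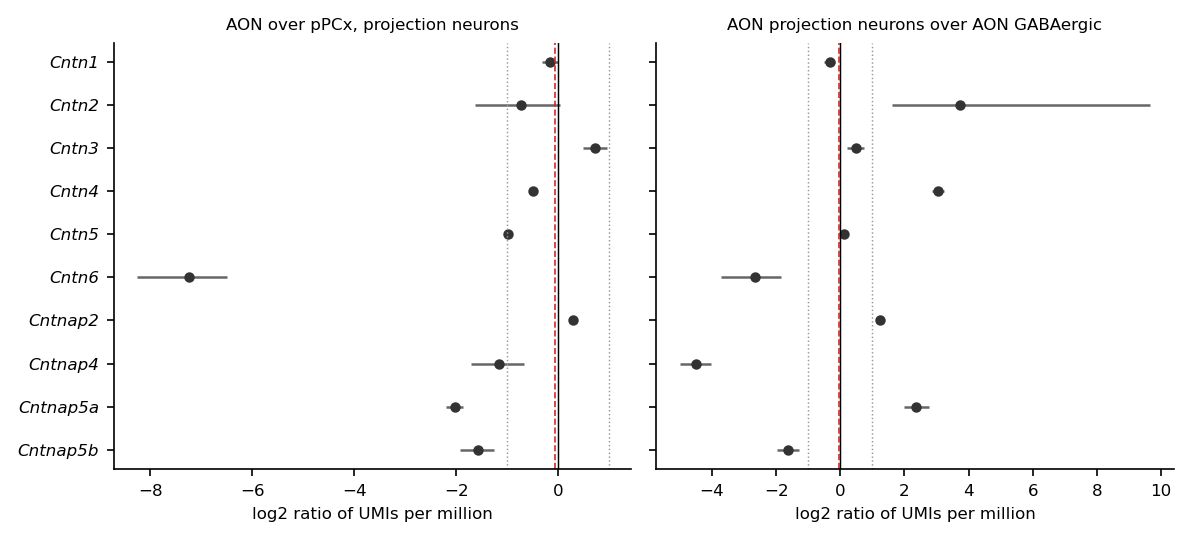
log2 ratios of CPM (horizontal axes) of the 10 members for AON over pPCx projection neurons (left) and for AON projection neurons over AON GABAergic nuclei (right). Points have 0.5 UMI added to each sum, bars are exact 95% counting intervals of the ratio, dotted lines mark 2-fold and the dashed line the median of all genes. *Cntn6* lies farthest out on the left at -7.24 and *Cntnap4* on the right at -4.49.

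The 2 GABAergic nuclei of the pPCx library, with 48847 and 10816 UMIs, are too few to describe a class. The deeper one carried 88 *Cntn6* UMIs and 811 of the 812 *Cntn5* UMIs, and the other 11 of the 13 *Cntnap4* UMIs. The shallower one had *Cntnap2* as well, with 47 UMIs.

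The 30 remaining AON nuclei were mainly glial by their markers, with 2874 CPM of the 6 astrocyte genes and 5780 CPM of the 6 oligodendrocyte genes. Interneuron markers also reached 1111 CPM there, with 3 or more UMIs in 24 of 30 nuclei, so the class is mixed. In the 18 nuclei led by astrocyte markers, *Cntn1* had 371 CPM, but 1 nucleus held 47.5% of its UMIs, and *Cntn2* had 0 UMIs, which allows up to 11.0 CPM. In the 8 nuclei led by oligodendrocyte markers, *Cntn2* had 28 UMIs or 159 CPM (105 to 229), and *Cntn3* had 90 UMIs or 510 CPM (410 to 626) with at least 1 UMI in all 8. *Cntn2* and *Cntn3* were therefore counted in oligodendrocyte-marked nuclei above their AON projection neuron levels of 15.2 and 241 CPM. *Cntn4*, *Cntn5*, *Cntn6*, *Cntnap4*, *Cntnap5a* and *Cntnap5b* had 1 to 7 UMIs each in either glial group. *Cntnap2* had 185 UMIs in the astrocyte-led nuclei, of which 141 were in 1 nucleus. Of the 2 remaining pPCx nuclei, that of 7141 UMIs held 25 UMIs of *Cntnap2* and 4 of *Cntnap4*, and that of 6241 UMIs held 0 of every member.

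The spread of *Cntn6* across pPCx projection neurons fell into a low and a high range. Of 59 nuclei, 11 had 0 UMIs, 12 had 1 to 3 UMIs and 36 had 12 to 368 UMIs, and no nucleus lay between 3 and 12. As CPM, the median was 1313 CPM and the highest 5744 CPM, with the widest gap between 100 CPM, which was 1 UMI in a nucleus of 9963, and 677 CPM, which was 12 UMIs. The 36 nuclei above the gap held 99.5% of all *Cntn6* UMIs. The high nuclei were not the deeper ones, as nuclei with at least 100 CPM had a median of 31310 UMIs and those under 100 CPM a median of 42358.5. Across the 59 nuclei the rank correlation of *Cntn6* CPM with depth was 0.084, as a description. After thinning to 3000 UMIs, 0 of the 22 nuclei under 100 CPM kept a UMI and 2 of the 37 others had 0.

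**Figure D3:**
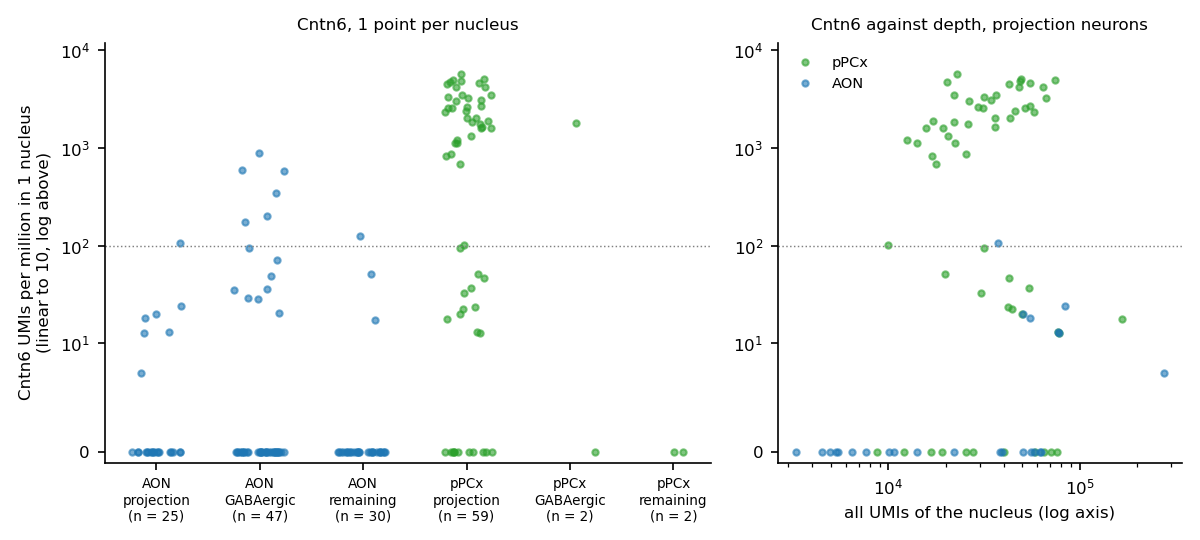
*Cntn6* CPM in single nuclei (vertical axes, linear to 10 and log above), by library and class (left, 1 point per nucleus) and against the UMIs of the nucleus for projection neurons (right, log axis); the dotted line is 100 CPM. The 36 pPCx projection neurons with 12 or more UMIs stand above 676 CPM at all depths, and the AON projection neurons do not go above 107 CPM.

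By a limit of 100 CPM, 37 of 59 pPCx projection neurons (62.7%, exact 95% interval 49.1% to 74.96%) were in the high range. A limit on a level makes a range and not a cell type. On both sides the genes of the class rule were present, with *Slc17a7* at 209 CPM in the high and 175 CPM in the low range, *Cdhr1* at 209 and 156 CPM, and *Tbx21* at 141 and 118 CPM. Astrocyte markers had 290 CPM in the high and 104 CPM in the low range, and *Tbr1*, *Neurod6* and *Cux2* together went the other way at 69.2 and 162 CPM. Here *Cux2* gave 85 of 88 UMIs in the high and 164 of 171 in the low range. The part of these marker RNAs in the division was not tested. The median log2 ratio of high over low over 12331 genes was 0.12.

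Other members divided along the same line. *Cntnap5a* had 1652 CPM in the high and 490 CPM in the low range, 3.37-fold (3.06 to 3.72), and 36 of 37 high nuclei exceeded the low median of 171 CPM. In the low range, 51.0% of its UMIs were in the nucleus of 167296 UMIs, without which the log2 ratio rose from 1.75 to 2.53. *Cntn4* had 2892 and 1532 CPM, 1.89-fold, and *Cntn5* had 3930 and 2333 CPM, 1.68-fold, with 35 of 37 high nuclei above the low median for each. *Cntnap5b* had 279 and 189 CPM, 1.48-fold (1.24 to 1.77), and leaned the same way more weakly in these sums. The nucleus of 167296 UMIs held 37% of its low-range UMIs, and without it the log2 ratio rose from 0.56 to 0.98. Its median per nucleus was 236 CPM in the high and 75.6 CPM in the low range. These 4 genes, like *Cntn6*, thus had their higher level in the high range.

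*Cntn3*, *Cntnap2* and *Cntnap4* had theirs in the low range, where 11 of 22 nuclei held 0 *Cntn6* UMIs and the others 17 in all. *Cntn3* had 48 UMIs, or 37.8 CPM, in the high range and 291 UMIs, or 275 CPM, in the low range, 7.29-fold more (5.35 to 10.1), and only 2 of 37 high nuclei exceeded the low median of 186 CPM. *Cntnap2* had 3512 and 7957 CPM, 2.27-fold more in the low range, with 20 of 22 low nuclei above the high median. *Cntnap4* had 45.6 and 118 CPM, 2.59-fold more, on 58 and 125 UMIs. *Cntn1* had 449 and 538 CPM and *Cntn2* 28.3 and 22.7 CPM, so these genes separated the ranges by less than any member above.

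*Cntn6* made the ranges, so it is left out of the count of members. Of the others, only 1, *Cntnap5a*, was at least 2-fold higher in the high range, beside 12.1% of the 12331 genes. In the low range 3 were at least 2-fold higher, beside 7.06%. With each nucleus weighted equally only *Cntn3* stayed at 2-fold on the low side. Without nuclei carrying 5 or more glial UMIs, which left 10 high and 11 low nuclei, none did, and the log2 ratio of *Cntn3* moved from -2.85 to -0.91. These ratios are descriptions, because the ranges were made from the same nuclei.

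AON projection neurons lay nearer the low range of pPCx for several members. *Cntn3* had 241 CPM in AON, 275 CPM in the low range and 37.8 CPM in the high range. *Cntn4* had 1621, 1532 and 2892 CPM in the same order, *Cntnap2* had 6729, 7957 and 3512 CPM, and *Cntnap5a* had 275, 490 and 1652 CPM. Set against the low range alone, the counting interval of the ratio to AON spanned 1 for *Cntn2*, *Cntn3* and *Cntn4*, and *Cntn6* is left out because it made the ranges. *Cntnap4* and *Cntnap5b* stayed apart, with more in the low pPCx range than in AON by 3.39 times (2.35 to 4.99) for the former and 2.37 times (1.84 to 3.08) for the latter. Other members lay nearer the high range, namely *Cntnap4* with 34.9 CPM in AON, 118 in the low and 45.6 in the high range, and *Cntn1* with 435, 538 and 449 CPM.

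**Figure D4:**
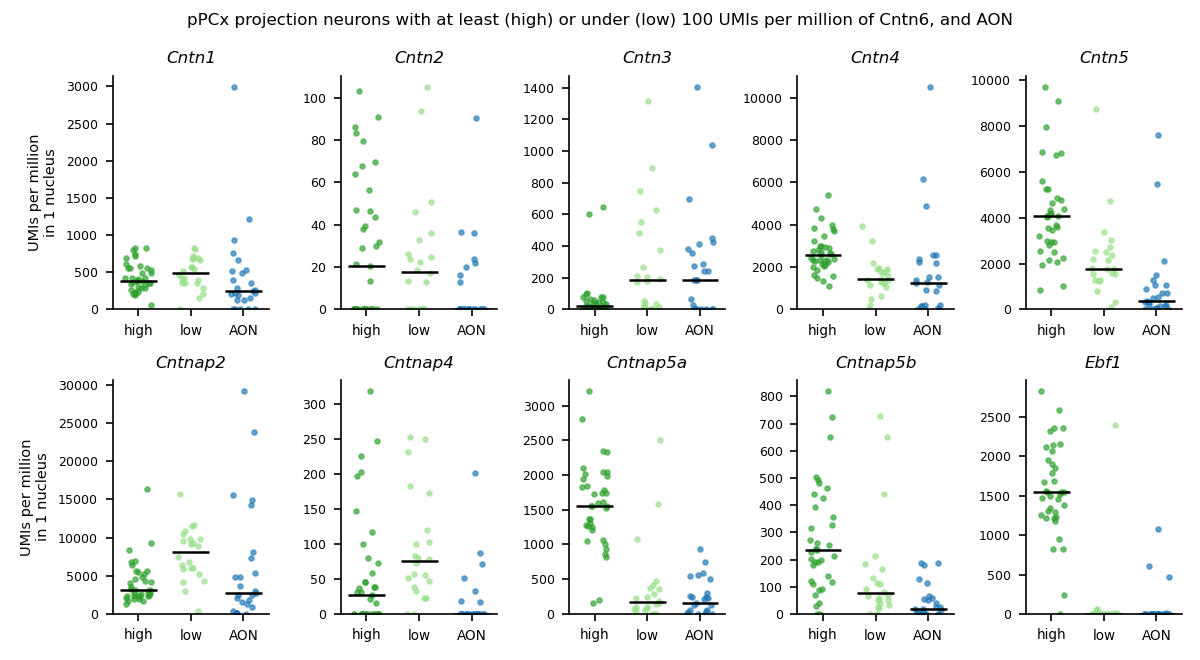
CPM in single projection neurons (vertical axes) of 9 members and *Ebf1*, for pPCx nuclei with at least 100 CPM of *Cntn6* (high, 37 nuclei), under 100 CPM (low, 22 nuclei) and AON (25 nuclei); black lines are medians. *Cntn4*, *Cntn5*, *Cntnap5a* and *Ebf1* sit higher in the high range, *Cntn3* and *Cntnap2* in the low range, where 1 low nucleus reaches 2393 CPM of *Ebf1*.

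Ranked by Spearman correlation of CPM with *Cntn6* over the 59 pPCx projection neurons, the 5 nearest of 6051 genes with at least 50 UMIs were *Gabra2* (0.822), a GABA-A receptor subunit, *Dpyd* (0.818), a pyrimidine-degrading enzyme, *Gria2* (0.817), an AMPA receptor subunit, *Cpa6* (0.806), a secreted carboxypeptidase, and *Lingo2* (0.8002), a membrane protein with leucine-rich repeats. All nuclei come from 1 library, and the values are descriptions. Among the members *Cntn4* ranked 47 (0.625) and *Cntnap5a* 71 (0.583), and *Cntnap2* stood near the other end at rank 6028 (-0.647), with *Cntn3* at 5943 (-0.460) and *Cntnap4* at 5899 (-0.414). *Ebf1*, a helix-loop-helix transcription factor, ranked 6 at 0.795. It had 10 or more UMIs in 36 pPCx projection neurons, of which 35 also had 10 or more of *Cntn6*. The exception was a nucleus of 42618 UMIs with 102 of *Ebf1*, 373 of *Cntn5* and 2 of *Cntn6*. In AON, 3 projection neurons had 10 or more *Ebf1* UMIs, and none of them had 10 or more of *Cntn6*, so *Ebf1* was found in both libraries without always being joined by *Cntn6*.

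Known partners of these proteins were followed in a list of 22 genes. Between AON and pPCx projection neurons, 20 could be compared, and 3 were at least 2-fold higher in AON and 3 in pPCx, beside 8.51% and 12.4% of all genes, and their median log2 ratio was 0.00061. Higher in AON were *Ptprz1*, a phosphatase that binds *Cntn1* (83 against 17 UMIs, 10.2-fold), *Kcna2*, a potassium channel of the *Cntnap2* complex (171.8 against 59.7 CPM, 2.88-fold), and *Notch1*, on 7 against 3 UMIs. Higher in pPCx were *Lgi1*, a secreted ligand of ADAM proteins (11.6 against 28.3 CPM, 2.44-fold), *Tnr*, the matrix protein tenascin-R that binds *Cntn1* (278 against 595 CPM, 2.14-fold), and *Ptprg*, a phosphatase that binds several contactins (174 against 366 CPM, 2.11-fold). *Ptprz1* also had 2729 CPM in the astrocyte-led nuclei, and the part of astrocyte RNA in its AON value was not tested. *Cntnap1*, the axonal partner of *Cntn1*, was 2.41-fold higher in AON on 37 and 32 UMIs.

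Between AON projection neurons and AON GABAergic nuclei, 21 partners could be compared, and 3 were higher in projection neurons and 7 in GABAergic nuclei by at least 2-fold, beside 16.5% and 16.8% of all genes. The largest ratios to projection neurons were those of *Kcna2* (12.8-fold), *L1cam* (5.81-fold) and *Chl1* (2.67-fold), where *L1cam* and *Chl1* are adhesion molecules of the L1 type. The largest to GABAergic nuclei were those of *Kcna1*, on 61 against 3 UMIs, *Lgi1* (6.22-fold) and *Ncam2* (5.71-fold), a neural adhesion molecule. The potassium channel genes *Kcna1* and *Kcna2* thus lay on opposite sides.

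Between the *Cntn6* ranges of pPCx, 19 partners could be compared, and 4 were at least 2-fold higher in the high range and 0 in the low range, beside 12.1% and 7.06% of all genes. *Lgi1* had 63 UMIs in the high and 3 in the low range, *Tnr* had 940 and 180 CPM (5.23-fold, 4.49 to 6.13), and *Ptprz1* had 14 and 3 UMIs. *Tnr* ranked 7 in likeness to *Cntn6* (0.790), which was noticed after its values were seen.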

How the data were processed

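The authors deposited raw UMI counts per gene and nucleus for 2 libraries, made with Cell Ranger (3.1.0 in the file header). The mouse genome build, the annotation and the treatment of intronic reads are not given in the sources used here. The members, lists and classes were chosen with earlier results of these data known.

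Barcodes with at least 1000 genes were kept, the limit given in the methods of the study, and none exceeded its mitochondrial limit. The kept set differs from that of the study, which reports 74 retained pPCx nuclei, whereas 63 of the 74 deposited pPCx barcodes passed here. No doublet caller was run on 165 nuclei. UMIs were summed per class and library and scaled to CPM. log2 ratios had 0.5 UMI added and needed at least 10 UMIs over both sums. Intervals are exact at 95% (Poisson, Clopper-Pearson, or the binomial split of UMIs), and a count of 0 allows 3 UMIs. With 1 library per group no test was run. For shares, each nucleus was thinned to 3000 UMIs. Opposite-strand genes overlap *Cntn3*, *Cntn5* and *Cntnap4* in the tables. Named genes were the members, *Cntnap1*, *Cntnap3*, *Cntnap5c*, 22 partner genes (values for the 3 largest ratios each way), the class genes, *Ebf1* and the 5 genes most like *Cntn6*. The scripts were tested on simulated counts and run with Python 3.11.15, numpy 2.4.6, scipy 1.17.1, pandas 2.3.3 and matplotlib 3.10.9. One gene of the cortical marker list is not reported here, and the list is given by its other genes, chosen after the data were seen.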

Additional observations from a re-analysis of the deposited data

Results flagged for a closer look

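Barcodes under 1000 genes, which enter no comparison above, held 1640 UMIs of the 10 members in the AON library (86 barcodes) and 134 in the pPCx library (11 barcodes). In AON, 1180 of these were *Cntnap2*, against 3983 CPM in kept nuclei and 12465 CPM in these barcodes, and 0 were *Cntn6*. In pPCx, 63 of the 69 *Cntn6* UMIs came from 1 barcode of 580 UMIs, where *Cntn6* made up 10.9% of all UMIs and *Cntn4* had 14 UMIs.

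For 4 members the log2 ratio of projection neurons over GABAergic nuclei had opposite signs in the libraries, with a counting interval clear of equal levels in each. It was 0.48 in AON and -2.42 in pPCx for *Cntn3*, 0.12 and -2.09 for *Cntn5*, 1.23 and -0.77 for *Cntnap2*, and -1.62 and 2.51 for *Cntnap5b*. The signs were also opposite for *Cntn2* (3.73 and -1.17) and *Cntn6* (-2.67 and 0.19), but their pPCx intervals included equal levels. The differences were not tested, and the pPCx library has 2 GABAergic nuclei.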

How the results depend on the processing

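Each log2 ratio was recomputed with other filters, stricter classes, equal weights per nucleus, other scales and added UMIs, and without very deep or glial-marked nuclei. Of 296 such values 222 stayed within the counting interval, 74 left it and 0 changed the sign of a ratio past 2-fold. The number of members at least 2-fold higher in AON than in pPCx projection neurons went from 0 to 1, namely *Cntn3*, both without nuclei over 3 times the median depth and without nuclei of 5 or more glial UMIs (13 AON and 21 pPCx nuclei). The number at least 2-fold higher in the low *Cntn6* range went from 3 to 1 with equal weights and to 0 without glial-marked nuclei, both alternatives chosen after seeing the data; the fewer nuclei come from the setting itself, and the cause was not tested. Of 63 counts and shares of nuclei at the *Cntn6* limit, 59 stayed within 1.5 times or their interval. Of 40 shares of nuclei with a UMI, 26 left their interval without thinning or at 10000 UMIs, as detection rises with depth. No paired analysis was possible because the labels number no replicates and hold 1 library for each group. Depth limits what can be said of *Cntn2* (17 UMIs) and *Cntn6* (12 UMIs) in the 25 AON projection neurons.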
